A study of Mus musculus with 18 samples.

Results

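Interferon-stimulated genes were described across colon crypt epithelial cells from mice that differed in their microbes and in the labelled Ern2 genotype. The 51 genes were chosen by symbol, as a list of known interferon targets, with no measured value in the rule, and all 51 were found among the 24047 genes of the count table. Crypts were released from the colon with EDTA and kept on a strainer, and their mRNA was sequenced from C57BL/6 wild-type (WT) mice and from a C57BL/6 line with a whole-body deletion of Ern2, which encodes the endoplasmic reticulum stress sensor IRE1β. Germ free (GF) mice lived in isolators, GF-COLONIZED mice (written COLONIZED here) were germ free mice given cecal microbiota of conventional WT donors and examined at day 14, and conventional (CONV) mice were raised with microbes. Each of the 6 groups held 3 libraries, all 18 were used, and the labels gave no age. The labels did not say that replicates came from separate mice, so p-values measure the spread between these libraries. The study's text describes RNA-seq points of its CONV groups as individual mice, and in 4 of the 6 groups the replicates differed in sex, by Y-linked transcripts, so there they did not all come from 1 mouse. For GF-WT neither source settles it, and the spread may be technical. The deletion is not limited to the epithelium, so the design does not tell an effect within the crypt cells from an effect of other cells of the mouse.

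Interferons are secreted proteins that bind receptors on neighbouring cells and activate JAK kinases, which switch on transcription factors inside the cell. Type I and lambda interferons act through a complex that contains STAT2 and IRF9 and binds short GAAA-rich sites (interferon-stimulated response elements, ISREs) in promoters and turns on genes that restrict viruses. Interferon gamma acts mainly through a different site (GAS) and favours immunity GTPases such as the guanylate-binding proteins (GBPs) and the IRGs. Intestinal epithelium responds mainly to interferon lambda and to interferon gamma, and keeps part of this gene set on at rest.

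The promoters of 4 members that carry results are shown first, each from a different gene group and taken from the called members that hold a match, as the 200 bases before the RefSeq start on GRCm38.p6, written 5′ to 3′ on the strand of the gene. Capitals mark matches to the core letters of an ISRE, GAAA, any 2 bases (NN) and GAAA again, searched on both strands, so that TTTC, any 2 bases and TTTC in capitals are a match on the other strand. Ifitm2 is shown from chr7:140955962-140956161 on the minus strand, Ifit1 from chr19:34640689-34640888 on the plus strand, Oas3 from chr5:120777660-120777859 on the minus strand and Igtp from chr11:58199356-58199555 on the plus strand.
Ifitm2: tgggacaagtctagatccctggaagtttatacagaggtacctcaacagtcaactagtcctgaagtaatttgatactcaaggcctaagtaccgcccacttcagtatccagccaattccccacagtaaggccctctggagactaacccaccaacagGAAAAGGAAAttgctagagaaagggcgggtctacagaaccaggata
Ifit1: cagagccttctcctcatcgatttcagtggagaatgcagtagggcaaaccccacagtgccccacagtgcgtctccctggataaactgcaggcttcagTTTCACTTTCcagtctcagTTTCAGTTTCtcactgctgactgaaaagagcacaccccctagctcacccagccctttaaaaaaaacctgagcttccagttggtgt
Oas3: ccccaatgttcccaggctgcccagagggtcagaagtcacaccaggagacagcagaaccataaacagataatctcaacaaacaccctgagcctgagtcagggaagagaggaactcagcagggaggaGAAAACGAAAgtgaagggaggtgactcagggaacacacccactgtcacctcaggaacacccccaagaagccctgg
Igtp: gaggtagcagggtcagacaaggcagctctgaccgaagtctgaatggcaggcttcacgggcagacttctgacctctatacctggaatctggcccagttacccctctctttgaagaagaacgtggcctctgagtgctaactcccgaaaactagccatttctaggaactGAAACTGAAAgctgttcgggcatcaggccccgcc
The first match lay 46 bases before the start in Ifitm2, 104 in Ifit1, 75 in Oas3 and 34 in Igtp. RefSeq promoters (250 bases before to 50 after the start) were found for 39 of the 51 members, and 22 of them (56.4%) held this ISRE core on either strand, against 3.99% of all 27025 genes with such a promoter. The GAS letters TTCNNNGAA, which can overlap the first motif, were in 11 of 39 (28.2%) against 9.55% of these genes. Of the called members, Irf7, Sp100, Oasl1, Samd9l and Trim25 had 0 matches to the ISRE core there. A match describes the letters of the window and is not a measured binding site.

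Library totals ran from 5865619 to 23154481 counted reads. Ern2 did not follow the genotype label: normalized Ern2 counts were 2573, 1909 and 2439 (GF-WT), 2695, 2412 and 2331 (COLONIZED-WT) and 3099.7, 3100.3 and 2089 (CONV-WT), and with the Ern2-/- label 2877, 386 and 3336 (GF), 2567, 1325 and 1885 (COLONIZED) and 998, 1622 and 1487 (CONV). In 3 libraries with the Ern2-/- label, COLONIZED replicate 1 and GF replicates 1 and 3, the count was not below the WT range, so genotype is named below by label. The other 6 of the 9 libraries labelled Ern2-/- lay below every WT library, the lowest being GF-Ern2-/- replicate 2. The count table does not show on which exons the Ern2 reads lie, so reads from outside the deleted stretch, intact transcript and exchanged labels cannot be told apart from this gene alone, and each genotype comparison below is a comparison of labels. Summed goblet markers did separate the labels, lower with Ern2-/- in GF (52780 to 115163 against 119103 to 165481 normalized counts) and COLONIZED mice (89865 to 178806 against 192988 to 249885), and overlapped in CONV mice through CONV-WT replicate 3. Muc2 and Fcgbp weighed most in these sums, with medians of 51194 and 52116, against 5032 for Tff3 and 1181 for Spdef. Tff3 was highest of all libraries in GF-Ern2-/- replicate 2 (17177). The study reported fewer goblet cells and less spliced Xbp1 mRNA in CONV-Ern2-/- than in CONV-WT mice. For GF mice, where the marker sums did not overlap here, it reported almost the same goblet cell numbers and crypt expression in both genotypes. Epithelial Epcam and Krt8 were present in every library (8948 to 34787 and 37125 to 69978 normalized counts). Summed leukocyte markers, 15 of 16 of which were in the table, reached 92.2 to 397 normalized counts, with Ptprc at 39.2 to 256 and Cd4 and Siglech at 0 in 15 libraries each. Y-linked transcripts showed that the sexes were unevenly spread over the groups. They were present in 0 of 3 GF-WT and 3 of 3 CONV-Ern2-/- libraries and in 1 or 2 of 3 libraries of the other 4 groups. In bulk samples fewer cells of a type and less RNA per cell cannot be told apart.

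One library held the highest level of most members. GF-Ern2-/- replicate 1 ranked first of 18 for 44 of the 51 genes, while it ranked first for 6.20% of the 12441 genes with a mean of at least 10 normalized counts. Within its group it was highest for 50 members and at least 2-fold above both others for 40, against 1.25% of all those genes. On the log2(normalized count + 1) scale, relative to each gene's mean over the 18 libraries, the members averaged 2.13 in this library, with 3.05 for the oligoadenylate synthetases (OAS), 2.62 for the GTPases and 2.52 for the IFIT and IFI genes. The median deviation of all genes was at most 0.02 in every library. All 5 sensors, all 6 OAS genes and all 7 IFIT and IFI genes ranked first there, as did 3 of 5 transcription factors and nuclear body genes, 10 of 13 membrane and nucleotide effectors, 6 of 7 genes of the ISG15 group and 7 of 8 GTPases. The 7 exceptions were Irf1, Irf7, Ifitm1, Ifitm2, Mx1, Trim25 and Iigp1, and Ifitm2 ranked 16th there. Its leukocyte markers summed to 119 and its mesenchymal markers to 12.7 normalized counts, both within the ranges of the other libraries, and it carried a Y-linked signal, as did replicate 2 of its group.

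**Figure D1:**
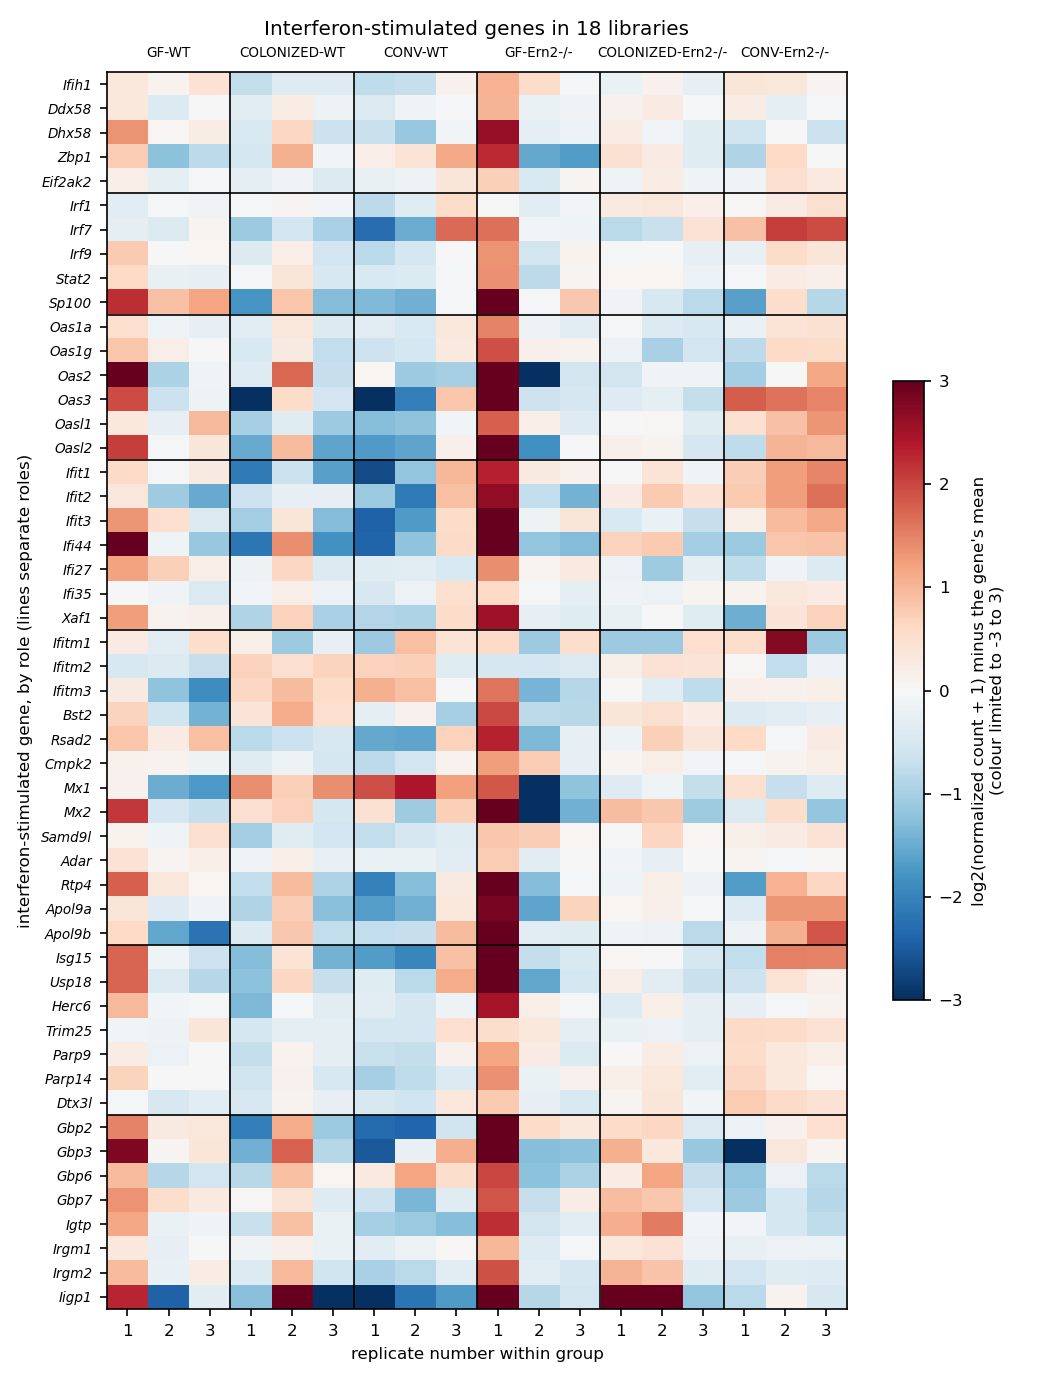
Deviation of each of the 51 members (rows, ordered by role) in each of the 18 libraries (columns, by group and replicate) from that gene's mean over all libraries, on the log2(normalized count + 1) scale. The GF-Ern2-/- replicate 1 column is the highest for 44 of the 51 rows, and the Ifitm2 and Mx1 rows have their highest values in CONV-WT replicate 2.

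Smaller upward shifts of the member average were seen in other libraries. GF-WT replicate 1 averaged 0.91 with 46 members above their mean, COLONIZED-WT replicate 2 averaged 0.46 and was highest in its group for 45 members, and CONV-WT replicate 3 averaged 0.20 and was highest in its group for 41. They were at least 2-fold above both other libraries of their group for 23, 20 and 19 members, against 0.900%, 0.699% and 5.68% of all genes. CONV-Ern2-/- replicates 2 and 3 averaged 0.43 and 0.30, and COLONIZED-Ern2-/- replicates 2 and 1 averaged 0.22 and 0.13. The lowest averages were -0.90 and -0.70 in CONV-WT replicates 1 and 2. The gene groups did not shift alike, and in CONV-WT replicate 3 the GTPases deviated by -0.33. The GTPases deviated by 1.21, 1.04 and 1.31 in COLONIZED-WT replicate 2 and COLONIZED-Ern2-/- replicates 1 and 2, where the OAS genes deviated by 0.58, -0.17 and -0.28. The order was the opposite in CONV-Ern2-/- replicates 2 and 3, with OAS genes at 0.75 and 0.99 and GTPases at -0.15 and -0.36. CONV-WT replicate 3 also stood apart in other genes, with the lowest Epcam of all libraries (8948) and the highest mesenchymal marker sum (228 normalized counts, others 3.47 to 155). Its goblet marker sum was 44218, against 358367 and 307646 in CONV-WT replicates 1 and 2 and 35655 to 47912 in CONV-Ern2-/-, and the part of these cells in its member levels was not tested.

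**Figure D2:**
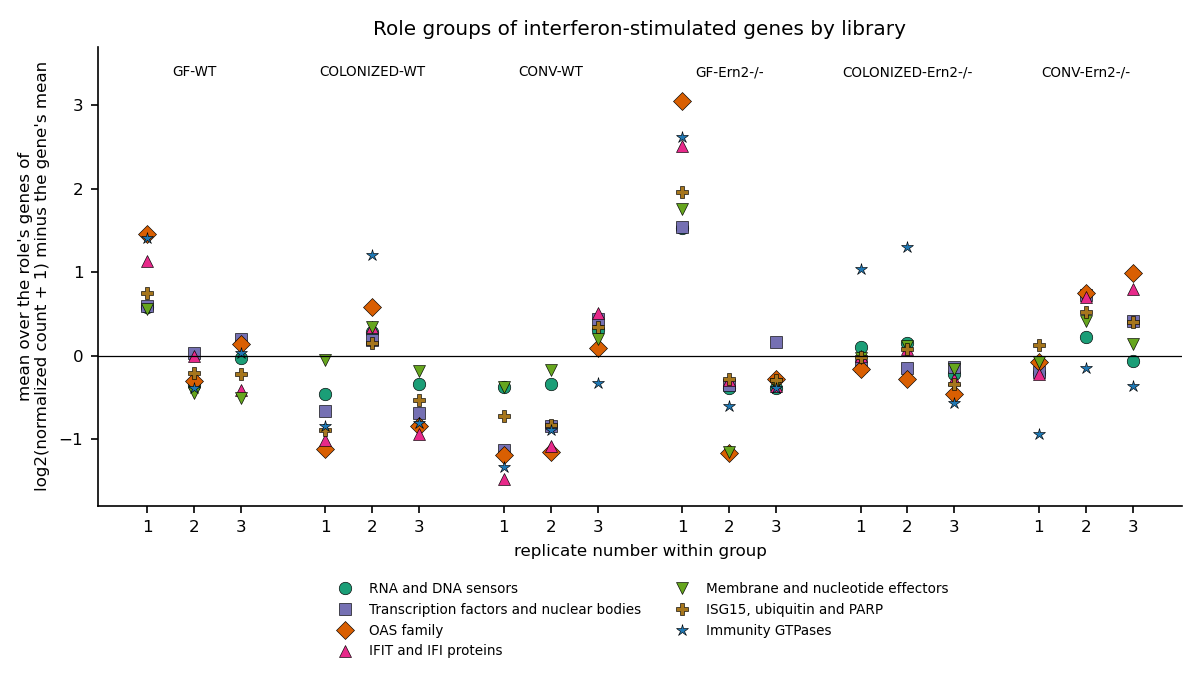
Mean deviation of each gene group (symbols) in each library (x axis, by group and replicate), on the log2(normalized count + 1) scale relative to each gene's mean over 18 libraries. The OAS genes reach 3.05 in GF-Ern2-/- replicate 1, and the GTPases lie above 1 in 3 COLONIZED libraries in which the OAS genes do not.

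The levels of the members covered a wide range. Per kilobase of exon, Ifitm2 was highest (1972 normalized counts per kb, mean over 18 libraries), and it was highest in each of the 6 groups. The means of Irf7 (567), Irf1 (487), Trim25 (452) and Ifitm3 (447) came next over the 18 libraries. Both the genes in these places and their order differed between groups. Irf7 ran from 219 in COLONIZED-WT and 350 in GF-WT to 1327 in CONV-Ern2-/-, and in GF-WT Ifi27 (532) lay above all of these but Ifitm2. Ifitm1 (1.68), Mx2 (3.47) and Gbp6 (5.31) were lowest. Ifitm1 was listed at 0 in 6 libraries. The ratio of the highest to the median library was 52.0 for Ifi44, 50.8 for Oas2 and 49.7 for Iigp1, genes with a median of 13.3, 22.0 and 4.69 normalized counts, and under 2 for Ifih1, Eif2ak2, Irf1, Ifi35, Ifitm2, Samd9l, Adar, Trim25 and Dtx3l. Iigp1, an IRG GTPase named here after its values were seen, had 43.8, 0.701 and 6.25 (GF-WT), 2.85, 102 and 0 (COLONIZED-WT) and 0, 0.988 and 1.83 (CONV-WT), and 208, 4.01 and 5.21 (GF), 77.6, 233 and 3.01 (COLONIZED) and 4.18, 8.89 and 5.52 (CONV) with the Ern2-/- label. Its 5 highest libraries were thus COLONIZED-Ern2-/- replicates 2 and 1, GF-Ern2-/- replicate 1, COLONIZED-WT replicate 2 and GF-WT replicate 1. Reads of several members could be shared with near copies, by the share of 75-base windows of their transcripts found in another gene: 55.2% for Gbp6, 47.6% for Oas1a, 44.6% for Oas1g, 42.0% for Ifitm2 (with a readthrough transcript at its own locus), 41.6% for Apol9b and 41.1% for Ifit3. Their counts are uncertain to that degree.

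Among 5 sensors of viral RNA and DNA, Ifih1 was the member that passed a test (DESeq2 Wald test, adjusted p under 0.01 over all genes tested). Differences between groups are given here and below as log2 fold changes ± their standard errors. Ifih1 encodes MDA5, which detects long double-stranded RNA. Its normalized counts in replicates 1, 2 and 3 were 1321, 1140.5 and 1442 (GF-WT), 649.6, 814 and 817 (COLONIZED-WT) and 627, 659 and 1176 (CONV-WT). With the Ern2-/- label the counts were 2190.1, 1555 and 1027 (GF), 934, 1165 and 904 (COLONIZED) and 1368, 1353 and 1126 (CONV). The 3 COLONIZED-WT libraries lay below the 3 GF-WT libraries, whereas CONV-WT replicate 3 overlapped them. The log2 fold change was -0.77 ± 0.16 (adjusted p 3.81e-05) in COLONIZED-WT vs GF-WT and the call held with each library left out in turn. In CONV-WT vs GF-WT it was -0.68 ± 0.31 (adjusted p 0.115). The other 4 sensors, Ddx58 (RIG-I), Dhx58 (LGP2), Zbp1 and Eif2ak2 (PKR), passed no comparison.

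Among the transcription factors and nuclear body genes, Irf7 and Sp100 passed a test. Irf7, the master regulator of type I interferon induction, had normalized counts of 1241, 1120.2 and 1599 (GF-WT), 712, 1009 and 762 (COLONIZED-WT) and 308, 537 and 4894 (CONV-WT), and of 4731, 1421 and 1367 (GF), 857, 949 and 2022 (COLONIZED) and 2769, 6388 and 5874 (CONV) with the Ern2-/- label. Of the WT libraries, CONV-WT replicate 3 alone was in the range of the CONV-Ern2-/- libraries, as was GF-Ern2-/- replicate 1, and the other CONV-WT libraries held the lowest values of the series. Irf7 was lower in COLONIZED-WT than in GF-WT, with -0.67 ± 0.20 (adjusted p 0.0054), a call lost when GF-WT replicate 3 or COLONIZED-WT replicate 1 or 3 was left out (adjusted p from 0.0371 to 0.068). It was higher in CONV-Ern2-/- than in COLONIZED-Ern2-/- by 1.98 ± 0.37 (adjusted p 8.4e-06), and this held with each library left out. DESeq2 gave no adjusted p for Irf7 in CONV-WT vs GF-WT, where 1 library lay far from the fit. The gene Phrf1 overlaps Irf7 (chr7:141262706-141266481 on mm10) on the opposite strand, and the strand setting of the counting is not given in the sources used here. Sp100, a nuclear body component, had 282, 111 and 139 (GF-WT), 17.1, 109 and 23.8 (COLONIZED-WT) and 23.6, 21.7 and 58.4 (CONV-WT) and, with the Ern2-/- label, 614, 58.2 and 106 (GF), 55.5, 43.2 and 34.1 (COLONIZED) and 18.8, 86.7 and 33.1 (CONV). It was lower in CONV-WT than in GF-WT, with -2.40 ± 0.54 (adjusted p 0.000215), with no overlap between the groups, and the call held in each of 6 fits with 1 library left out. Irf1, Irf9 and Stat2 passed no comparison.

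The OAS genes encode enzymes whose product activates RNase L, and Oasl1 a related protein without that activity. Oas3 had normalized counts of 255, 41.3 and 58.3 (GF-WT), 7.13, 95.5 and 43.7 (COLONIZED-WT) and 5.66, 14.8 and 117 (CONV-WT), and of 1049, 42.1 and 45.9 (GF), 49.1, 53.1 and 39.1 (COLONIZED) and 232, 204 and 182 (CONV) with the Ern2-/- label. All 3 CONV-Ern2-/- libraries lay well above the 3 COLONIZED-Ern2-/- libraries, and GF-Ern2-/- replicate 1 lay above them all. The log2 fold change of CONV-Ern2-/- vs COLONIZED-Ern2-/- was 2.14 ± 0.27 (adjusted p 1.23e-12), and held with each library left out. Oasl1, an inhibitor of Irf7 translation, had 277, 188 and 441 (GF-WT), 111, 174 and 105 (COLONIZED-WT) and 91.5, 95.8 and 210.0 (CONV-WT). Its values were 779, 256 and 169.9 (GF), 225, 228 and 175 (COLONIZED) and 313, 411 and 563 (CONV) with the Ern2-/- label, where the 3 CONV libraries lay above the 3 COLONIZED libraries. Oasl1 was lower in COLONIZED-WT than in GF-WT, with -1.21 ± 0.33 (adjusted p 0.00175), a call lost when GF-WT replicate 3 or COLONIZED-WT replicate 1 or 3 was left out (adjusted p from 0.0344 to 0.0391). It was higher in CONV-Ern2-/- than in COLONIZED-Ern2-/- by 1.03 ± 0.27 (adjusted p 0.00226), a call lost when CONV-Ern2-/- replicate 2 or 3 or COLONIZED-Ern2-/- replicate 1, 2 or 3 was left out (adjusted p from 0.0119 to 0.0413), and than in CONV-WT by 1.70 ± 0.43 (adjusted p 0.00291), a call lost when CONV-WT replicate 1 or 2 or CONV-Ern2-/- replicate 2 or 3 was left out (adjusted p from 0.0242 to 0.0972). Oas2 and Oasl2, named after their values were seen, showed how far 1 library could stand apart. Oas2 had 1119 normalized counts in GF-Ern2-/- replicate 1 and 0 and 17.7 in replicates 2 and 3, and Oasl2 had 4212 against 87.2 and 312.

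In the IFIT and IFI group, Ifit1, which binds viral RNA lacking the host cap, passed 3 comparisons. Normalized Ifit1 counts were 204, 134 and 166 (GF-WT), 30.7, 88.1 and 43.7 (COLONIZED-WT) and 20.7, 60.2 and 278 (CONV-WT). With the Ern2-/- label they were 694, 166 and 150.1 (GF), 137, 185 and 127 (COLONIZED) and 229, 331 and 384 (CONV). The 3 COLONIZED-WT libraries were below all GF-WT libraries and all COLONIZED-Ern2-/- libraries, and CONV-WT replicate 3 was the one WT library above 204. The log2 fold change was -1.62 ± 0.37 (adjusted p 0.00014) in COLONIZED-WT vs GF-WT, which held with each library left out. It was 1.46 ± 0.36 (adjusted p 0.00492) in COLONIZED-Ern2-/- vs COLONIZED-WT, a call lost when COLONIZED-WT replicate 1 or 3 or COLONIZED-Ern2-/- replicate 2 or 3 was left out (adjusted p from 0.0167 to 0.117), and 1.06 ± 0.28 (adjusted p 0.00228) in CONV-Ern2-/- vs COLONIZED-Ern2-/-, a call lost when CONV-Ern2-/- replicate 2 or 3 or COLONIZED-Ern2-/- replicate 1 or 3 was left out (adjusted p from 0.0213 to 0.0458). Ifi27, a mitochondrial protein, had 1060.1, 753 and 527 (GF-WT), 414, 711 and 347 (COLONIZED-WT) and 357, 368 and 338 (CONV-WT) and, with the Ern2-/- label, 1213, 492 and 569 (GF), 412, 222 and 378 (COLONIZED) and 274, 431 and 348 (CONV). The CONV-WT libraries were close to each other and below every GF-WT library, with a difference of -1.15 ± 0.30 (adjusted p 0.00208), a call lost when GF-WT replicate 1 or 2 or CONV-WT replicate 1 or 2 was left out (adjusted p from 0.0204 to 0.0311). Ifit2, Ifit3, Ifi44, Ifi35 and Xaf1 passed no comparison.

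The membrane effectors held the members called higher with microbes than in GF mice, Ifitm2 and Mx1. Ifitm2 (chr7:140954837-140955987), which blocks entry of enveloped viruses at endosomes, had normalized counts of 867, 913 and 753 (GF-WT), 1962, 1681 and 1929 (COLONIZED-WT) and 1961, 1992 and 944 (CONV-WT). With the Ern2-/- label the counts were 855, 861 and 905 (GF), 1364, 1629 and 1579.7 (COLONIZED) and 1248, 731 and 1079 (CONV). The 6 GF libraries lay between 753 and 913, and all 6 COLONIZED libraries lay between 1364 and 1962, with no overlap. The group means were 844 ± 82.5 in GF-WT and 1857 ± 154 in COLONIZED-WT (SD, n = 3), and 874 ± 27.2 and 1524 ± 141 in the corresponding Ern2-/- groups. The log2 fold change of COLONIZED vs GF was 1.15 ± 0.14 (adjusted p 4.32e-14) in WT and 0.80 ± 0.16 (adjusted p 5.7e-05) in the libraries labelled Ern2-/-, and both held with each library left out. CONV mice were less uniform: the fold change against GF was 0.94 ± 0.33 (adjusted p 0.0287) in WT, where replicate 3 lay near the GF range, and 0.22 ± 0.26 (adjusted p 0.724) with the Ern2-/- label. The interaction of colonization and genotype label for Ifitm2 was -0.34 (SE 0.18, adjusted p 0.888).

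Ifitm3 and Mx1 were lower with the Ern2-/- label than in WT among COLONIZED mice, and Mx1 also among CONV mice. Ifitm3, a gene of the same family as Ifitm2, had 305, 110.0 and 69.4 (GF-WT), 394, 488 and 373 (COLONIZED-WT) and 535, 472 and 252 (CONV-WT), and 778, 96.3 and 141 (GF), 251, 199 and 150.4 (COLONIZED) and 281, 279.9 and 287 (CONV) with the Ern2-/- label. Every COLONIZED-Ern2-/- library lay below every COLONIZED-WT library, with a log2 fold change of -1.06 ± 0.21 (adjusted p 0.000156), a call lost when COLONIZED-WT replicate 2 was left out (adjusted p 0.0173). Mx1 is a dynamin-like GTPase that is disrupted in C57BL/6 mice, so its transcript was measured and not a working protein. Its normalized counts were 59.9, 18.9 and 16.0 (GF-WT), 145, 90.3 and 144 (COLONIZED-WT) and 210.3, 299 and 129.7 (CONV-WT), and 201, 1.00 and 22.9 (GF), 41.3, 49.5 and 33.1 (COLONIZED) and 76.2, 33.3 and 41.4 (CONV) with the Ern2-/- label. The 6 WT libraries with microbes lay between 90.3 and 299, above every GF-WT library and above all 6 Ern2-/- libraries with microbes, while GF-Ern2-/- replicate 1 reached 201. Mx1 was higher in COLONIZED-WT than in GF-WT by 2.02 ± 0.46 (adjusted p 0.000146), a call lost when COLONIZED-WT replicate 1 or 3 was left out (adjusted p from 0.011 to 0.0136), and in CONV-WT than in GF-WT by 2.75 ± 0.58 (adjusted p 6.35e-05), which held in each of 6 fits with 1 library left out. With the Ern2-/- label it was lower than in WT, with -1.61 ± 0.29 (adjusted p 1.15e-05) in COLONIZED mice, which held with each library left out in turn, and -2.04 ± 0.48 (adjusted p 0.00112) in CONV mice, a call lost when CONV-WT replicate 1 or 2 or CONV-Ern2-/- replicate 2 or 3 was left out (adjusted p from 0.0171 to 0.0766).

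Rsad2 and Samd9l were lower in COLONIZED-WT than in GF-WT. Rsad2 (viperin), which makes a chain-terminating nucleotide, had 66.8, 44.1 and 70.8 (GF-WT), 20.7, 23.5 and 26.2 (COLONIZED-WT) and 12.3, 11.9 and 60.3 (CONV-WT), and 187, 14.0 and 31.3 (GF), 33.5, 61.2 and 48.1 (COLONIZED) and 56.4, 35.5 and 44.1 (CONV) with the Ern2-/- label. All 3 COLONIZED-WT libraries lay below the GF-WT libraries, with a log2 fold change of -1.36 ± 0.34 (adjusted p 0.000799), a call lost when GF-WT replicate 3 or COLONIZED-WT replicate 1 was left out (adjusted p from 0.0126 to 0.0131). Samd9l, a restriction factor that halts translation, had 1423, 1214 and 1838 (GF-WT), 638, 1037 and 897 (COLONIZED-WT) and 789, 940.3 and 1037 (CONV-WT), and 2313, 2196 and 1376 (GF), 1319, 2072 and 1370.1 (COLONIZED) and 1505, 1575 and 1777 (CONV) with the Ern2-/- label. Every WT library with microbes was below every Ern2-/- library with microbes. The log2 fold change was -0.79 ± 0.22 (adjusted p 0.00287) in COLONIZED-WT vs GF-WT, a call lost when GF-WT replicate 3 or COLONIZED-WT replicate 1 or 3 was left out (adjusted p from 0.0217 to 0.0379). Against WT it was 0.89 ± 0.23 (adjusted p 0.00784) in COLONIZED-Ern2-/-, a call lost when COLONIZED-WT replicate 1 or 3 or COLONIZED-Ern2-/- replicate 2 or 3 was left out (adjusted p from 0.0129 to 0.116), and 0.81 ± 0.20 (adjusted p 0.00204) in CONV-Ern2-/-, a call lost when CONV-WT replicate 1 or 2 or CONV-Ern2-/- replicate 1, 2 or 3 was left out (adjusted p from 0.0522 to 0.169). Bst2 (tetherin), Cmpk2, Mx2, Adar, Rtp4, Apol9a, Apol9b and Ifitm1 passed no comparison.

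Within the ISG15 group, whose members attach or remove ubiquitin-like tags or ADP-ribose, Trim25 and Parp14 passed a test. Trim25, the ubiquitin ligase that activates RIG-I, had 2375, 2244 and 3247 (GF-WT), 1736, 2074 and 2058 (COLONIZED-WT) and 1724, 1756 and 3554 (CONV-WT), and 3631, 3119.5 and 2073 (GF), 2165, 2220.4 and 2064 (COLONIZED) and 3739.6, 3682 and 3369 (CONV) with the Ern2-/- label. The 3 CONV-Ern2-/- libraries lay above the 3 COLONIZED-Ern2-/- libraries by 0.75 ± 0.14 (adjusted p 9.15e-06), which held with each library left out in turn. Parp14, an ADP-ribosyltransferase, had 1272, 789 and 791 (GF-WT), 529.8, 878 and 572 (COLONIZED-WT) and 399, 468 and 606 (CONV-WT), and 2084, 696 and 879 (GF), 909, 999 and 643 (COLONIZED) and 1236, 1002 and 828 (CONV) with the Ern2-/- label. It was higher in CONV-Ern2-/- than in CONV-WT by 1.06 ± 0.28 (adjusted p 0.00514) without overlap, a call lost when CONV-WT replicate 1 or 2 or CONV-Ern2-/- replicate 1, 2 or 3 was left out (adjusted p from 0.0165 to 0.141). Isg15 itself, named after its values were seen, had 191, 51.1 and 36.1 (GF-WT), 22.1, 75.7 and 20.6 (COLONIZED-WT) and 17.0, 13.8 and 104 (CONV-WT), and 636, 34.1 and 40.6 (GF), 58.4, 55.8 and 39.1 (COLONIZED) and 33.4, 162 and 160.0 (CONV) with the Ern2-/- label, and passed no comparison, nor did Usp18, which removes it from proteins.

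Of 8 immunity GTPases, 3 were lower in CONV-WT than in GF-WT by DESeq2, where 5.28% of all genes were called lower. edgeR called 0 of the 8 there, and 22 of 12603 genes over all. Gbp2 had 144, 60.9 and 64.6 (GF-WT), 11.4, 111 and 23.0 (COLONIZED-WT) and 9.43, 8.89 and 32.9 (CONV-WT), and 467, 74.2 and 63.6 (GF), 74.8, 78.3 and 37.1 (COLONIZED) and 44.9, 55.5 and 71.7 (CONV) with the Ern2-/- label. Gbp7 had 181, 102 and 86.8 (GF-WT), 72.7, 91.8 and 54.0 (COLONIZED-WT) and 45.3, 26.7 and 54.8 (CONV-WT), and 263, 43.1 and 82.3 (GF), 136, 123 and 49.1 (COLONIZED) and 32.4, 48.9 and 38.6 (CONV) with that label. For both genes the CONV-WT libraries lay below every GF-WT library. The log2 fold changes were -2.47 ± 0.64 (adjusted p 0.00156) for Gbp2, a call lost when GF-WT replicate 1 or CONV-WT replicate 1 or 2 was left out (adjusted p from 0.0204 to 0.0428), and -1.57 ± 0.44 (adjusted p 0.00423) for Gbp7, a call lost when GF-WT replicate 1 or 2 or CONV-WT replicate 1 or 2 was left out (adjusted p from 0.0237 to 0.0713). Igtp (Irgm3, chr11:58199556-58207591), an IRG protein of the vacuole defence, had 250.4, 98.1 and 104 (GF-WT), 69.9, 206 and 97.6 (COLONIZED-WT) and 55.6, 51.4 and 45.7 (CONV-WT), and 525, 76.2 and 90.7 (GF), 241, 334 and 105 (COLONIZED) and 105, 77.8 and 66.2 (CONV) with the Ern2-/- label. It was lower in CONV-WT than in GF-WT, with -1.57 ± 0.46 (adjusted p 0.00586), a call lost when GF-WT replicate 1 or CONV-WT replicate 1 or 2 was left out (adjusted p from 0.0252 to 0.053). In the libraries labelled Ern2-/- it was lower in CONV than in COLONIZED mice, with -1.42 ± 0.41 (adjusted p 0.00758), although COLONIZED replicate 3 lay just inside the CONV range, a call lost when CONV-Ern2-/- replicate 2 or 3 or COLONIZED-Ern2-/- replicate 1 or 2 was left out (adjusted p from 0.038 to 0.137). Igtp overlaps Irgm2 on the same strand, so reads of the shared stretch are uncertain.

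**Figure D3:**
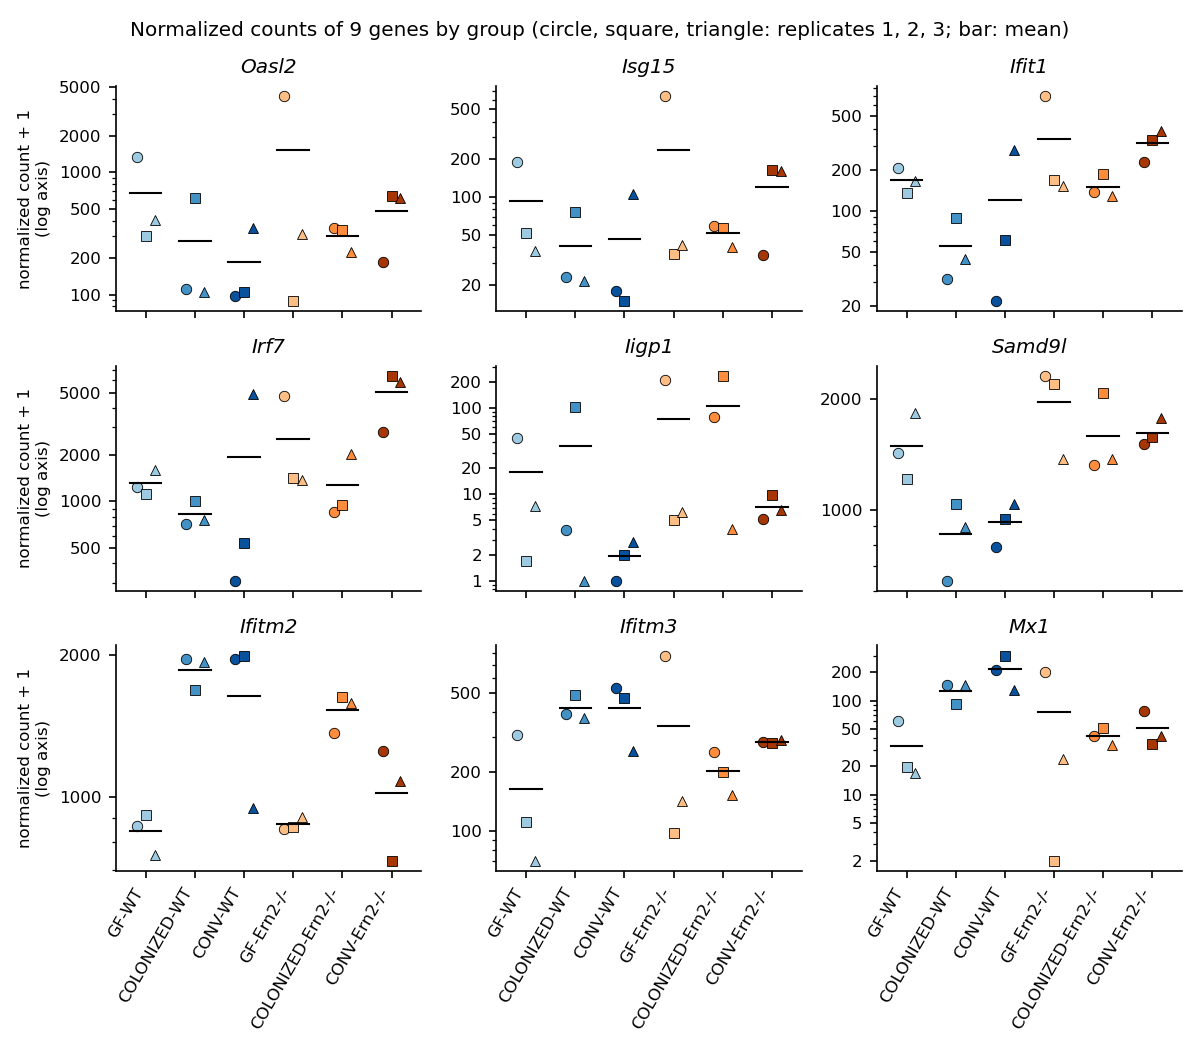
Normalized counts (log axis, counts + 1) of 9 members in the 18 libraries, by group, with points for libraries and bars for group means. Ifitm2 separates the GF from the COLONIZED libraries, Mx1 separates WT libraries with microbes from all others but GF-Ern2-/- replicate 1, and Oasl2, Isg15 and Ifit1 show GF-Ern2-/- replicate 1 above all other libraries.

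Counted over all 51 members, more were called lower than higher with microbes than in GF mice in WT. In COLONIZED-WT vs GF-WT, 50 members passed the filter on low values, 2 were higher (Ifitm2 and Mx1) and 6 lower (Ifih1, Ifit1, Rsad2, Oasl1, Samd9l and Irf7), where 18.3% of all genes were called (9.35% higher and 8.97% lower), so the share of members called was not above that of all genes. The median log2 fold change of the members was -0.53, against -0.01 for all genes tested. In CONV-WT vs GF-WT, 49 members were tested, Mx1 was higher and 5 were lower (Sp100, Gbp2, Ifi27, Gbp7 and Igtp), with 11.0% of all genes called (5.68% higher and 5.28% lower), and the median was -0.68. Mx1 was the member called in both, and the comparisons share the GF-WT libraries. By gene group, the median in COLONIZED-WT vs GF-WT was -1.13 for the OAS genes and -0.24 for the GTPases, and in CONV-WT vs GF-WT it was -1.30 and -1.57. The COLONIZED-WT values depended on replicate 2, where the GTPases deviated by 1.21, against -0.84 and -0.81 in replicates 1 and 3. The OAS genes deviated by 0.58, against -1.12 and -0.85. Without that library 2 GTPases (Gbp2 and Gbp3) and 2 OAS genes were called lower than in GF-WT, against 0 and 1 with all libraries. Without CONV-WT replicate 3, 25 members were called in CONV-WT vs GF-WT, 23 of them lower and Ifitm2 and Mx1 higher, with 20.8% of all genes called (10.3% lower and 10.5% higher) and a median of -1.05. The count in COLONIZED-WT vs GF-WT was 15 without COLONIZED-WT replicate 2 (14.1% of all genes called) and 3 or 4 without GF-WT replicate 3 (15.1%), COLONIZED-WT replicate 1 (9.22%) or COLONIZED-WT replicate 3 (11.5%), and that in CONV-WT vs GF-WT was 2 without CONV-WT replicate 1 (6.77%) or 2 (4.31%). Cell type markers differed too: between GF-WT and COLONIZED-WT the sums did not overlap for goblet cells (119103 to 165481 against 192988 to 249885 normalized counts), leukocytes (92.2 to 174.2 against 174.7 to 294, nearly touching) or endothelium (28.4 to 41.3 against 11.4 to 23.0). The endothelial sum was mostly the gene Pecam1, here and below. Its other genes, Cdh5 and Kdr, reached at most 1.00 and 2.76 normalized counts in any library. In CONV-WT, leukocyte (175 to 397) and mesenchymal sums (23.6 to 228, against 3.47 to 14.7) were above and epithelial sums (95203 to 108838, against 111956 to 129024) below those of GF-WT without overlap, and the part of these markers in the results was not tested. With sex as a covariate, 1 member (Ifitm2) remained called in COLONIZED-WT vs GF-WT and 2 (Mx1 and Sp100) in CONV-WT vs GF-WT, with 1.92% and 6.64% of all genes called. No GF-WT library carried a Y-linked signal. The group differences of these fits thus rest on COLONIZED-WT replicate 2 and on CONV-WT replicates 2 and 3, which carried none either. A call lost in them does not show an effect of sex.

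In the libraries labelled Ern2-/-, Ifitm2 was higher in COLONIZED than in GF mice, and the direction of most other members rested on GF-Ern2-/- replicate 1. Ifitm2 was the 1 of 42 members tested that was called in COLONIZED-Ern2-/- vs GF-Ern2-/-, where 7.17% of all genes were called (3.60% higher). None of 42 was called in CONV-Ern2-/- vs GF-Ern2-/- by DESeq2 or edgeR, where DESeq2 called 4.34% of all genes and edgeR 4 of 12318. There, 9 members had an unadjusted p under 0.05 by DESeq2 (19.8% of all genes) and 4 by edgeR (2433 of 12318 genes). Members not tested had low values or a library far from the fit, and these counts do not cover them. The medians were -0.78 and -0.70. Without GF-Ern2-/- replicate 1 they were 0.17 and 0.45, and the calls were 3 higher genes in COLONIZED (Zbp1, Ifitm2 and Bst2) and 4 in CONV (Irf7, Oas3, Ifit2 and Ifitm3), with 5.62% and 1.90% of all genes called. Without GF-Ern2-/- replicate 2 the counts were 6 and 3 (10.4% and 7.14% of all genes called), without replicate 3 the COLONIZED count was 5 (8.28%), and without CONV-Ern2-/- replicate 2 the CONV count was 1 (3.47%). With sex as a covariate, Ifitm2 and Sp100 (lower) were called in COLONIZED and 0 members in CONV mice, with 7.13% and 4.01% of all genes called. Between COLONIZED-Ern2-/- and GF-Ern2-/- the sums of surface colonocyte (19940 to 27018 against 34355 to 83677 normalized counts) and endothelial markers (6.02 to 11.4 against 30.2 to 59.2) did not overlap, nor did the goblet sums between CONV-Ern2-/- and GF-Ern2-/- (35655 to 47912 against 52780 to 115163), and their part was not tested. After replicate 1 of GF-Ern2-/- was left out, the gene groups differed: the GTPases had a median of 1.24 in COLONIZED and 0.01 in CONV, and the OAS genes 0.03 and 1.13.

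Between CONV and COLONIZED mice, 6 members were called with the Ern2-/- label and none in WT, and the difference between the labels in this contrast was not tested. In CONV-Ern2-/- vs COLONIZED-Ern2-/-, Oas3, Irf7, Trim25, Oasl1 and Ifit1 were higher and Igtp lower among 50 members tested, with 8.59% of all genes called (4.86% higher and 3.73% lower), and the groups did not overlap for 10 members in the higher and 4 in the lower direction (17.8% and 18.7% of all genes). The median was 0.24, with 0.71 for the OAS genes and -1.12 for the GTPases. The count was 12 without CONV-Ern2-/- replicate 1, where 18.4% of all genes were called, and 3 without CONV-Ern2-/- replicate 2 (5.97%), CONV-Ern2-/- replicate 3 (4.02%) or COLONIZED-Ern2-/- replicate 1 (3.29%). With sex as a covariate 7 members were called and 4.76% of all genes: Irf7, Oas3, Trim25 and Igtp kept their calls, Oasl1 and Ifit1 lost theirs (adjusted p 0.0422 and 0.042) and Gbp7, Irgm2 and Iigp1 were called lower. In CONV-WT vs COLONIZED-WT, DESeq2 and edgeR called 0 of 49 members, where DESeq2 called 0.119% of all genes and edgeR 0 genes. There, 4 members by DESeq2 (9.17% of all genes) and 2 by edgeR (899 of 12650 genes) had an unadjusted p under 0.05. Without CONV-WT replicate 3, Irf7 was called lower there, with 1.59% of all genes called, and the median moved from -0.10 to -0.49. The surface colonocyte markers were also higher in CONV-Ern2-/- (sums of 60673 to 74161 normalized counts) than in COLONIZED-Ern2-/- (19940 to 27018) and the goblet markers lower (35655 to 47912 against 89865 to 178806), as epithelial, mesenchymal and endothelial sums were higher, all without overlap, and their part in these differences was not tested.

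Between the genotype labels, 4 members were called in COLONIZED and 4 in CONV mice, and none in GF mice. In COLONIZED-Ern2-/- vs COLONIZED-WT, Ifit1 and Samd9l were higher and Mx1 and Ifitm3 lower, of 48 tested, with 1.37% of all genes called (0.518% higher and 0.853% lower) and a member median of 0.18. In CONV-Ern2-/- vs CONV-WT, Samd9l, Oasl1 and Parp14 were higher and Mx1 lower, of 47 tested, with 3.03% of all genes called (1.08% higher and 1.96% lower) and a median of 0.46. Samd9l and Mx1 were called in both, in the same direction, and these comparisons share no library. With sex as a covariate, Samd9l lost its call in COLONIZED mice (adjusted p 0.0199), where Ifit1, Ifitm3 and Mx1 kept theirs, and in CONV mice Samd9l (0.0491), Mx1 (0.0803) and Parp14 (0.0346) lost theirs, Oasl1 kept its own, and Irf7, Oas3 and Ifit1 gained a call as higher. In these fits 1.03% and 1.88% of all genes were called. All 3 CONV-Ern2-/- libraries carried a Y-linked signal, so the CONV fit rests on CONV-WT replicate 1, the CONV-WT library that carried one. The calls lost and gained in CONV mice depend on that library and do not show an effect of sex. The CONV comparison depended on CONV-WT replicate 3, without which 21 members were called, 18 higher and 3 lower (Ifitm2, Ifitm3 and Mx1), with 12.4% of all genes called (7.17% higher and 5.22% lower). The count was 0 when replicate 1 or 2 of CONV-WT (1.19% and 0.989% of all genes called) or replicate 2 or 3 of CONV-Ern2-/- (2.52% and 1.28%) was left out, and 2 without CONV-Ern2-/- replicate 1 (1.37%). The COLONIZED count was 2 when replicate 1 or 3 of COLONIZED-WT (0.617% and 0.902%) or replicate 2 or 3 of COLONIZED-Ern2-/- (0.731% and 1.29%) was left out. In GF-Ern2-/- vs GF-WT, DESeq2 and edgeR called 0 of 41 members, with 0.0350% of all genes called by DESeq2 and 0 genes by edgeR. An unadjusted p under 0.05 was given to 3 members by DESeq2 (1.48% of all genes) and 0 by edgeR (194 of 12604 genes). The filter on low values removed no gene there (17167 tested with and without it). Members not tested thus had a library far from the fit, and the 0 of 41 does not cover them. There, 49 of 51 members had a positive fold change, with a median of 0.69, which was -0.49 without GF-Ern2-/- replicate 1. Surface colonocyte markers also differed without overlap between CONV-Ern2-/- (sums of 60673 to 74161 normalized counts) and CONV-WT (17701 to 29706), as did epithelial sums. Between COLONIZED-Ern2-/- and COLONIZED-WT the goblet (89865 to 178806 against 192988 to 249885) and endothelial sums (6.02 to 11.39 against 11.41 to 23.0) did not overlap, and the part of these markers was not tested. Sex differs between the labels too, since all 3 CONV-Ern2-/- libraries and 1 of 3 CONV-WT libraries carried a Y-linked signal.

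**Figure D4:**
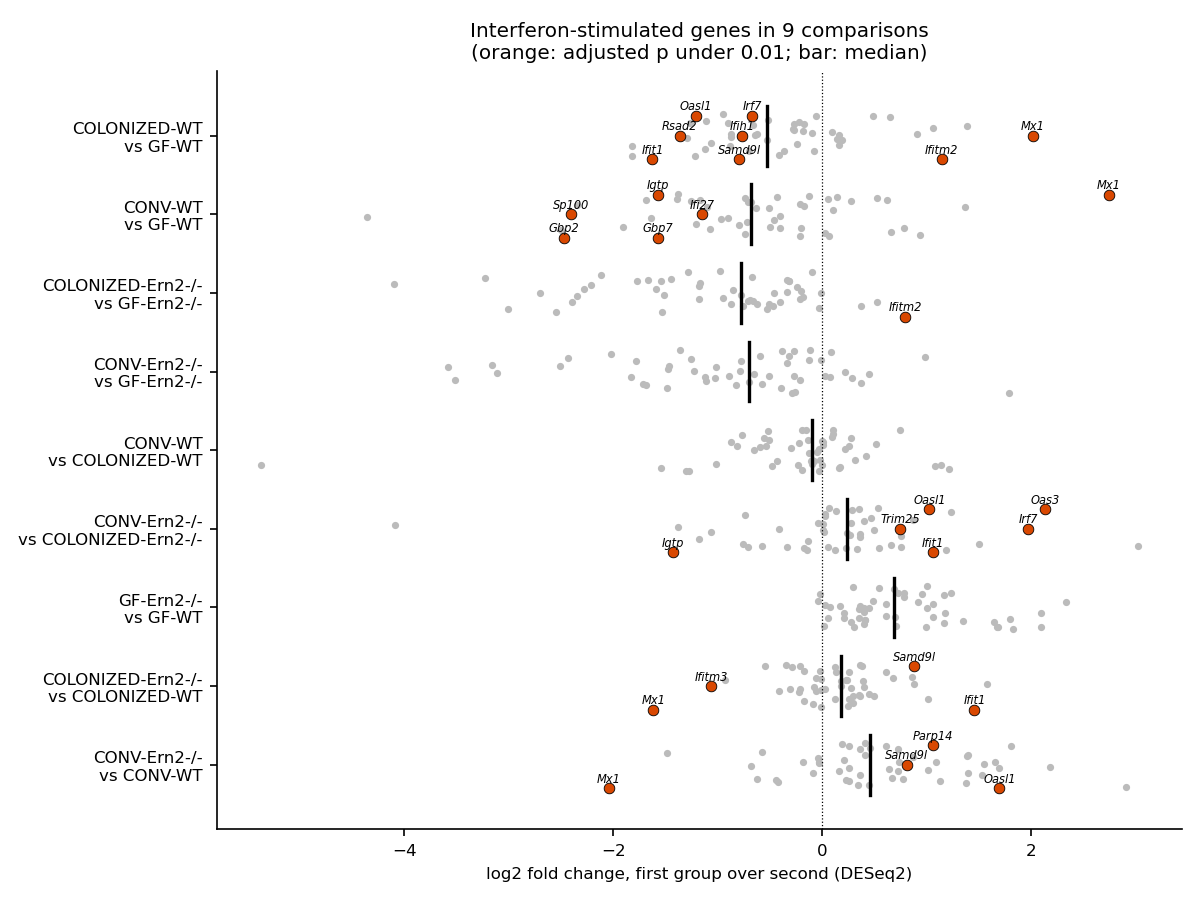
Log2 fold change (DESeq2) of the 51 members in the 9 pairwise comparisons, with filled points for members called at an adjusted p under 0.01 and a line for the median. The medians lie below 0 in the 4 comparisons of mice with microbes against GF mice, and Ifitm2 and Mx1 lie above it in WT.

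The tests of the difference between labels called no member. For CONV vs GF by genotype label 40 members were tested and for COLONIZED vs GF 41, and DESeq2 and edgeR called 0 in both, where DESeq2 called 0.177% and 0.0280% of all genes and edgeR 0 genes. In the COLONIZED interaction the filter on low values removed no gene (17884 tested with and without it), so members not tested had a library far from the fit. In each, 0 members by DESeq2 and 1 by edgeR had an unadjusted p under 0.05. Over all genes it was 9.07% and 5.76% by DESeq2, and 957 of 12900 and 947 of 13045 by edgeR. Without CONV-WT replicate 3, Irf7 was called in the CONV interaction (log2 difference 2.64, with 2.23% of all genes called). Across the 9 pairwise comparisons, 29 calls were made on 17 members. edgeR's quasi-likelihood test called 3 of the 29 (Ifitm2 with an adjusted p of 0.0041 and Ifih1 with 0.0097 in COLONIZED-WT vs GF-WT, and Oas3 with 0.00515 in CONV-Ern2-/- vs COLONIZED-Ern2-/-), where it called 4.94% and 0.282% of all genes, and gave adjusted p from 0.0144 to 0.164 for the other 26 calls.

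**Figure D5:**
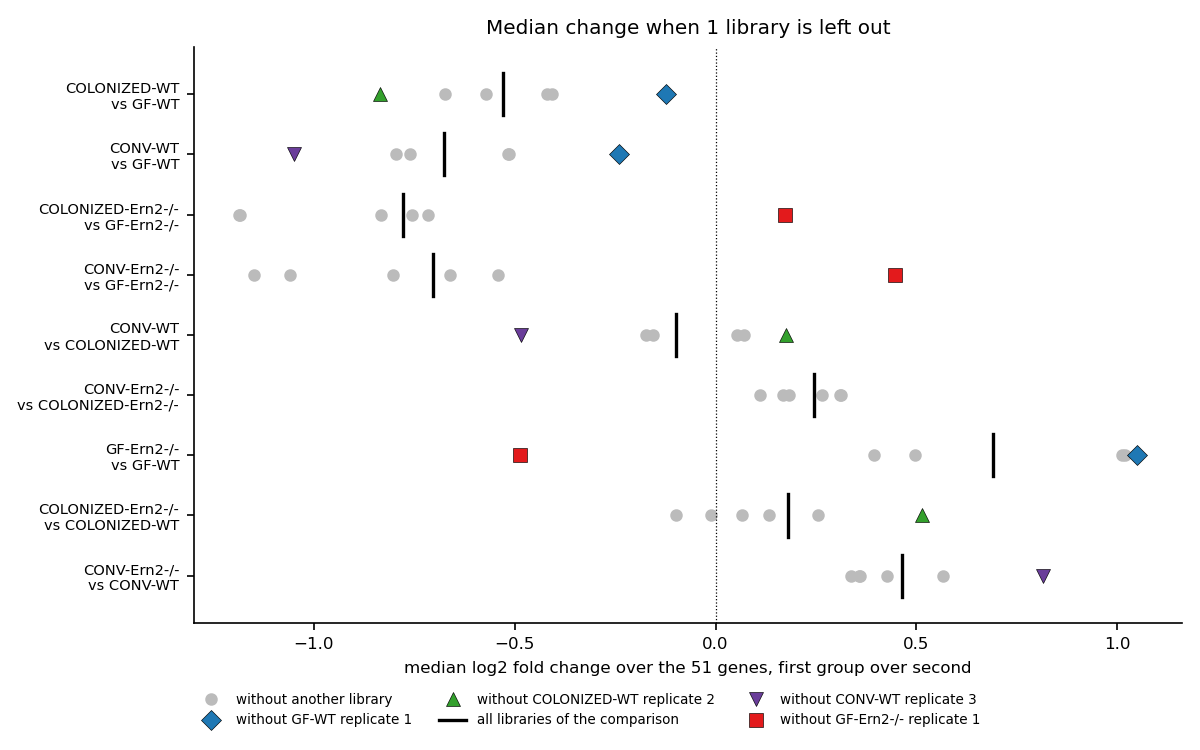
Median log2 fold change of the 51 members in each comparison with all libraries and with each library left out in turn. The medians of the comparisons with GF-Ern2-/- cross 0 when replicate 1 of that group is left out, from -0.78 to 0.17 for COLONIZED, from -0.70 to 0.45 for CONV and from 0.69 to -0.49 against GF-WT.

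The genes upstream of the members were measured with the same tests. All 9 interferon genes of the list, including Ifnb1, Ifnl2 and Ifnl3, had 0 counts in every library except 1 count of Ifng in COLONIZED-Ern2-/- replicate 2, so their change was not detectable at this depth. Of 25 pathway genes tested in COLONIZED-WT vs GF-WT, 3 were higher and 7 lower by DESeq2, where 18.3% of all genes were called, and edgeR called 2 of them, Ifngr1 and Mb21d1, and 630 of 12761 genes over all. The receptor subunits Ifngr1, Ifngr2 and Ifnlr1 (of the interferon lambda receptor) were lower, with -0.92 ± 0.17 (adjusted p 3.12e-06), -0.68 ± 0.18 (adjusted p 0.0012) and -0.81 ± 0.23 (adjusted p 0.00248), and Ifnar2, of the type I receptor, was higher by 1.16 ± 0.27 (adjusted p 0.000227). Ifnar1 and Il10rb, the other receptor subunits, had -0.24 ± 0.11 (adjusted p 0.108) and -0.39 ± 0.16 (adjusted p 0.0465). The others called were Mb21d1 (cGAS) and Irf8, which were higher, and Jak2, Tlr3, Mavs and Irf2, which were lower. In CONV-WT vs GF-WT, Ifngr1 and Ifnlr1 were lower, with -1.33 ± 0.33 (adjusted p 0.00102) and -1.30 ± 0.27 (adjusted p 3.43e-05), and Socs1, an inhibitor of the JAK kinases, and Mb21d1 were higher by 2.02 ± 0.43 (adjusted p 7.15e-05) and 1.19 ± 0.22 (adjusted p 3.26e-06), again of 25 tested, where 11.0% of all genes were called. edgeR called 0 of the 25 there (22 of 12603 genes over all), with adjusted p from 0.0243 to 0.048 for those 4 genes, and 11 at an unadjusted p under 0.05 against 13 by DESeq2. Over all genes, 3621 had such a p by edgeR (12603 tested) and 4256 by DESeq2 (13872 tested). In COLONIZED-Ern2-/- vs GF-Ern2-/-, Ifngr1 and Ifngr2 were lower and Mb21d1 higher, of 25 tested, where 7.17% of all genes were called. edgeR called 0 of the 25 (adjusted p from 0.0454 to 0.0578 for these 3) and 27 of 12519 genes over all, and 7 of the 25 had an unadjusted p under 0.05 by each tool. Over all genes it was 3277 by edgeR (12519 tested) and 3505 by DESeq2 (13943 tested). Ifngr2 and Ticam1 were higher and Tmem173 (STING) lower in CONV-Ern2-/- vs COLONIZED-Ern2-/-, of 25 tested, where 8.59% of all genes were called. edgeR called 0 there too (35 of 12414 genes over all), with adjusted p from 0.0204 to 0.0599 for the 3 genes and 5 at an unadjusted p under 0.05, against 6 by DESeq2. Over all genes it was 3895 by edgeR (12414 tested) and 4017 by DESeq2 (13098 tested). By DESeq2 and edgeR the remaining comparisons called 0 pathway genes, with 0 to 6 at an unadjusted p under 0.05 by either tool. Over all genes, 254 to 2776 had such a p by DESeq2 (11960 to 17884 tested). By edgeR it was 194 to 2786 (12128 to 13045 tested).

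Of 40 other interferon targets listed outside the members, 37 were in the table. In CONV-WT vs GF-WT 1 of these was higher and 8 lower of 31 tested, where 11.0% of all genes were called, and in COLONIZED-WT vs GF-WT 3 were lower and 0 higher of 32, where 18.3% of all genes were called. edgeR called 0 of them in both (22 of 12603 and 630 of 12761 genes over all), with 14 and 13 at an unadjusted p under 0.05 by edgeR and 15 and 13 by DESeq2. Over all genes, DESeq2 gave such a p to 4256 and 5383 genes, with 13872 and 13635 tested. By edgeR it was 3621 and 5338, with 12603 and 12761 tested. Their median log2 fold changes were -0.54 and -0.24, against -0.68 and -0.53 for the members.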

How the data were processed

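RNA of 18 libraries was read in 75 cycles, single end. The authors deposited a table of gene counts made with STAR on mm10 within their VIPER pipeline, per the labels and the study's methods. Tool versions, the annotation and the strand setting are not given in the sources used here. All 18 columns were mapped to samples by position, from the column number in each sample's description. The members and lists were chosen with earlier results of these data known. Each comparison was fitted on its own libraries with DESeq2 1.42.0 in R 4.3.3 (Wald test, Benjamini-Hochberg adjusted p under 0.01 over all genes tested). Of these choices, the study's methods give DESeq2 and the adjusted p under 0.01. Members were named where called in at least 1 comparison. Normalized counts used DESeq2 size factors over 18 libraries. edgeR 4.0.16, TMM size factors, no independent filtering, one fit of all 18 libraries, a sex covariate, a replicate block and leaving out each library were tried. The fits were also run on simulated data, with no result of that given here. Replicate numbers were not taken as pairs, as no comparison had all 3 correlations of same-numbered samples over 0.1. The correlations ran from -0.27 to 0.63 (the latter in replicate 1 of GF-Ern2-/- and GF-WT), and with 3 libraries per group they do not settle pairing. Gene positions and 75-base windows used the GENCODE annotation of GRCm38, and promoters the RefSeq table.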

Additional observations from a re-analysis of the deposited data

How the results depend on the processing

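No fold change of the 29 named calls reversed under any alternative. Of 348 values, 207 kept their side of the threshold and 141 did not. The call was lost in 26 of 29 calls with edgeR, 27 with all 18 libraries fitted together, 17 with a sex covariate, 3 with a replicate block, 1 without independent filtering and 0 with TMM size factors, and the remaining losses came when 1 library was left out. The cause was not tested. Members called moved with edgeR to 0 in CONV-WT vs GF-WT, 2 in COLONIZED-WT vs GF-WT, 0 in COLONIZED-Ern2-/- vs GF-Ern2-/-, 1 in CONV-Ern2-/- vs COLONIZED-Ern2-/- and 0 in both COLONIZED-Ern2-/- vs COLONIZED-WT and CONV-Ern2-/- vs CONV-WT. Of all genes edgeR called, in the same order, 0.175%, 4.94%, 0.216%, 0.282%, 0.00786% and 0 of 12128 genes. With all 18 libraries the member counts moved to 1, 1, 0, 0, 0 and 1 in the same comparisons, where 14.0%, 8.98%, 8.52%, 3.32%, 0.180% and 4.97% of all genes were called. With the sex covariate they were 2, 1 and 2 in the first 3 of these, and the median of GF-Ern2-/- vs GF-WT moved to -0.44. That median rests on GF-Ern2-/- replicate 3, the library of its group without a Y-linked signal, since no GF-WT library carried one. With the replicate block, the count in COLONIZED-Ern2-/- vs GF-Ern2-/- was 4, where 959 of 13320 genes were called. Whether replicate numbers pair the samples was not settled, and the other member counts under the block stayed within 1.5 times.

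With each library left out in turn, members called ran from 2 to 25 in CONV-WT vs GF-WT, 3 to 15 in COLONIZED-WT vs GF-WT, 0 to 4 in CONV-Ern2-/- vs GF-Ern2-/-, 1 to 6 in COLONIZED-Ern2-/- vs GF-Ern2-/-, 0 to 1 in CONV-WT vs COLONIZED-WT, 3 to 12 in CONV-Ern2-/- vs COLONIZED-Ern2-/-, 0 to 0 in GF-Ern2-/- vs GF-WT, 2 to 5 in COLONIZED-Ern2-/- vs COLONIZED-WT, 0 to 21 in CONV-Ern2-/- vs CONV-WT, 0 to 1 in the CONV interaction and 0 to 0 in the COLONIZED interaction. Calls over all genes moved too, in that order from 592 to 2868, 1276 to 2672, 251 to 948, 449 to 1340, 1 to 197 and 414 to 2499. For the rest they ran from 1 to 12, 81 to 656, 126 to 1669, 3 to 289 and 0 to 5. The 5 members in COLONIZED-Ern2-/- vs COLONIZED-WT were called without COLONIZED-WT replicate 2, where 99 of 12475 genes were called. The member medians ran, in the same order of comparisons, from -1.05 to -0.24, -0.84 to -0.12, -1.15 to 0.45, -1.19 to 0.17, -0.49 to 0.18, 0.11 to 0.31, -0.49 to 1.05, -0.10 to 0.51, 0.34 to 0.82, -0.45 to 1.07 and -0.97 to 0.63. The median of CONV-WT vs COLONIZED-WT turned to 0.18 without COLONIZED-WT replicate 2, and that of COLONIZED-Ern2-/- vs COLONIZED-WT to -0.10 without COLONIZED-WT replicate 3. Depth limits the members under 10 normalized counts in most libraries, Ifitm1 and Iigp1 among them.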
